A study of Mus musculus with 11 samples.

Results

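The phagocyte NADPH oxidase is described here through 5 of its genes, Cybb, Cyba, Ncf1, Ncf4 and Rac2, chosen by symbol as parts of the enzyme and not by a threshold on their values. All 5 were among the 18193 genes measured, through 10 probe sets that each carry 1 gene symbol. Where a gene had several probe sets, the one highest on average over the 11 arrays stands for it. Mouse macrophages were profiled in 3 states on Affymetrix arrays. M1 cells (3 arrays) were grown with interferon-gamma and lipopolysaccharide, to which the labels add the last 24 h without saying whether this covers both agents. M2a cells (3 arrays) were grown with IL-4 and IL-13. M0 cells (5 arrays) received no cytokines and are the series' common standard. The cells of all 3 groups came from bone marrow of Rag1-/- C57BL/6 mice aged 7 weeks. Mice without Rag1 have no mature T or B cells. Each culture lasted 7 days and ended with a sort for F4/80, a surface protein of mouse macrophages. The labels number the replicates without naming mice or cultures, so each p-value reflects the spread of these samples alone, and that spread may be technical.

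The phagocyte oxidase passes electrons from NADPH across a membrane to oxygen and so makes superoxide, which phagocytes use against microbes. Cybb encodes gp91phox, the catalytic subunit, and Cyba encodes p22phox, its partner in the membrane. In resting cells p47phox (Ncf1) and p40phox (Ncf4) stay in the cytosol, and after stimulation they move to the membrane together with the small GTPase Rac2. Loss of gp91phox, p22phox, p47phox or p40phox causes chronic granulomatous disease in humans, an immune deficiency with recurrent infections.

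The start regions of 3 of the 5 genes were available from RefSeq (GRCm38.p6), each with 250 bases before the annotated start site and 50 after it. All 3 are shown, and none was available for Ncf4 or Rac2. Capitals mark every match, on either strand, to 1 of 4 motifs. These were TTTC, any 2 bases and TTTC for interferon regulatory factors, TTC, any 4 bases and GAA for STAT6, GAGGAA for PU.1 and GGGACTTTC for NF-kB. All 3 stretches are on the minus strand and are written 5′ to 3′ in the direction of the gene.
Cybb, chrX:9469275-9469574: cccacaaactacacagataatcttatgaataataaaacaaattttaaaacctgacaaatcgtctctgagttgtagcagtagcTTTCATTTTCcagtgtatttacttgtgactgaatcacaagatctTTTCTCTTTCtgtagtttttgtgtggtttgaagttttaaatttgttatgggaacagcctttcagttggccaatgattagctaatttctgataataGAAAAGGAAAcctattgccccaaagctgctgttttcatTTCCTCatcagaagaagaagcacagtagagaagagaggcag
Ncf1, chr5:134229576-134229875: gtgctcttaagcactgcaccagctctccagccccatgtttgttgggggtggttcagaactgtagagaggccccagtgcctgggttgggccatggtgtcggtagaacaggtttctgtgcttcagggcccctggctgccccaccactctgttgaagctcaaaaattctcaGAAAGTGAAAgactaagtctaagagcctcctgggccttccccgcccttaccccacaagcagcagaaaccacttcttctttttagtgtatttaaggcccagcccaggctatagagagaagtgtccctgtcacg
Cyba, chr8:122432891-122433190: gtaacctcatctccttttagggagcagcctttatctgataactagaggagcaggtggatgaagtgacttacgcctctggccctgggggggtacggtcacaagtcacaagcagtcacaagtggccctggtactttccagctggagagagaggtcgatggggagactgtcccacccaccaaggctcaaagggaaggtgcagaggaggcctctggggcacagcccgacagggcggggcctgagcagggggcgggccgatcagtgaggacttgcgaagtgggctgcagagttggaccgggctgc
The Cybb stretch held 3 matches to the interferon regulatory factor motif. They were TTTCATTTTC from base -168, TTTCTCTTTC from base -124 and, on the other strand, GAAAAGGAAA from base -29. The Cybb stretch also held 1 match to the PU.1 motif, TTCCTC on the other strand from base 10 after the start. The Ncf1 stretch held 1 match to the interferon regulatory factor motif, GAAAGTGAAA on the other strand from base -82. The Cyba stretch held none of the 4 motifs. Of 32851 such stretches of mouse genes, 3.44% held the interferon regulatory factor motif, 6.95% the STAT6 motif, 28.3% the PU.1 motif and 0.353% the NF-kB motif. A match is a description of letters and was not tested for binding, and the arrays do not measure it.

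Some facts of the arrays bear on every result. The values are deposited log2 values, so a difference of 1 is a 2-fold change. On each of the 45101 probe sets, M0 arrays 1 to 3 had the same average as M0 arrays 4 and 5 to within 8.3e-05, which 5 unrelated measurements would not show. The correlation between arrays across genes was 0.997 to 0.998 within M1, 0.996 to 0.998 within M2a and 0.956 to 0.995 within M0. Control signals separated the groups too. Spiked-in hybridization controls were highest in M0 (values with Cyba below). The poly-A controls, also spiked in, averaged 5.56 to 5.66 in M1, 6.31 to 6.50 in M2a and 9.19 to 10.32 in M0. The 18S ribosomal RNA probe sets averaged 6.15 to 6.30, 8.51 to 8.64 and 8.96 to 9.54 in the same order. The part of the poly-A and 18S signals in the results was not tested. Adgre1, which encodes F4/80, was higher by 1.23 in M1 and by 0.55 in M2a, each against M0. All 4 M1 state markers rose in M1 against M0, Cxcl9 by 9.48. Of 4 M2a state markers, 3 rose in M2a against M0, Arg1 by 7.68, and Mrc1 did not pass (0.77, limma adjusted p = 0.15). Arg1 also rose in M1 against M0, by 3.48, while the other 3 M2a markers fell there. Of 12 measured neutrophil-lineage genes, all but Lcn2 fell in M1 and all 12 fell in M2a against M0, and the mean log2 value of that list was 7.42 to 7.58 in M1, 5.51 to 5.59 in M2a and 11.30 to 12.65 in M0. All 8 eosinophil, basophil and mast cell genes fell in both states, and their mean was 3.76 to 3.82 in M1, 4.12 to 4.27 in M2a and 6.87 to 8.79 in M0. Of 8 measured macrophage genes, 4 rose and 1 fell in M1, and 1 rose and 5 fell in M2a. Neutrophils also carry the oxidase, and the part of other cells in the M0 sort was not tested. In these bulk samples fewer cells of a type and less RNA per cell cannot be told apart.

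**Figure D1:**
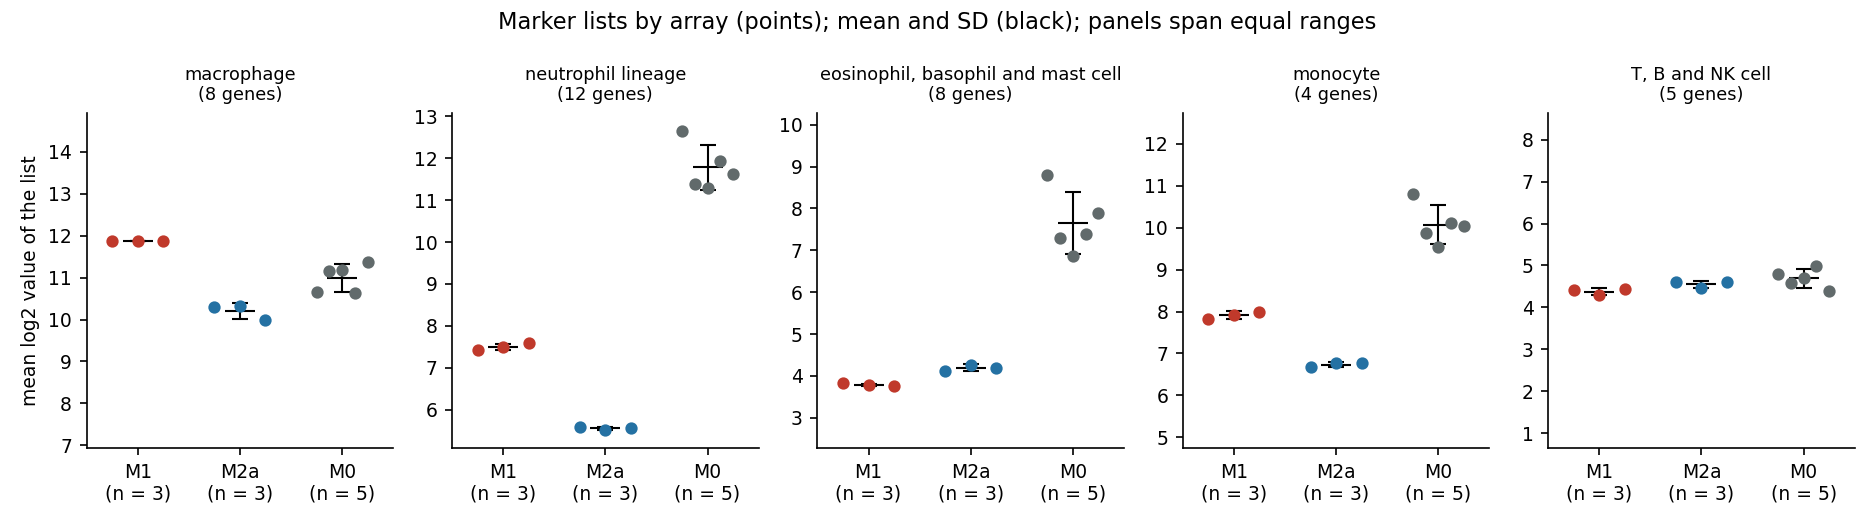
Mean log2 value of 5 marker lists in each array, by group (M1, M2a, M0). Points are arrays, black marks are the mean and SD, and all panels span equal ranges. The neutrophil-lineage list lies at 11.30 to 12.65 in the M0 arrays, above all M1 and M2a arrays.

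Cybb, the catalytic subunit, moved in opposite directions in the 2 cytokine states. It measured 13.50, 13.57 and 13.61 in the M1 arrays, against 12.15, 12.09, 12.24, 11.91 and 12.40 in the M0 arrays. All M1 arrays lay above all M0 arrays. The difference was 1.40 ± 0.16 (SE), a 2.64-fold higher level (95% interval 2.07 to 3.37), with an adjusted p of 3.3e-05 in limma. Of all genes, 3.42% had a larger rise in M1. In the M2a arrays Cybb measured 11.28, 11.21 and 10.57, and all of them lay below the M0 arrays. The third M2a array was the lowest of the 11. The difference from M0 was -1.14 ± 0.16 (SE), a 2.21-fold lower level, with an adjusted p of 0.00024 in limma, and 4.11% of all genes had a larger fall. Set against each other, M1 exceeded M2a by 2.54 ± 0.18 (SE), 5.82-fold (95% interval 4.44 to 7.65), with an adjusted p of 6.3e-07 in limma, and 1.47% of genes had a larger excess in M1. Both comparisons against M0 use the same 5 M0 arrays. Each of these 3 calls was made under all 11 fits that left out 1 array. Those without an M0 array can change M1 against M2a only through the spread shared by the groups.

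The other 2 probe sets of Cybb showed the same order of group means with other sizes. Probe set 1436779_at measured 11.94, 12.02 and 12.06 in M1, 8.94, 9.01 and 8.37 in M2a, and 9.29, 9.59, 9.71, 9.09 and 9.96 in M0. It was higher by 2.48 ± 0.20 (SE) in M1 and lower by a difference of -0.76 ± 0.20 (SE) in M2a, each against M0, with limma adjusted p-values of 2.4e-06 and 0.013 over all 34945 probe sets with 1 symbol. Probe set 1422978_at measured 12.95, 12.94 and 12.95 in M1, 8.75, 8.69 and 8.0 in M2a, and 9.73, 9.57, 9.87, 7.90 and 11.55 in M0. Within M0 its values spread over 3.65 log2 units, from array 4 to array 5, while the probe set that stands for the gene spread over 0.49. Its difference was 3.23 ± 0.58 (SE) in M1 against M0 (limma adjusted p = 0.0011) and -1.24 ± 0.58 (SE) in M2a against M0, which did not pass (limma adjusted p = 0.13). M0 arrays 4 and 5 were also the extremes of their group in a measure of RNA integrity, the actin control signal at the 5' end less that at the 3' end, at -1.27 and 0.05. That difference lay at 0.13 to 0.18 in M1 and -0.63 to -0.53 in M2a. With it as a covariate the M1 excess of 1422978_at over M0 was 1.18 and that of the gene's main probe set was 1.15. Both passed (limma adjusted p = 0.0078 and 0.0018). With the hybridization controls, spiked-in transcripts that no mouse cell contains, as a covariate, the M1 excess of 1422978_at was 0.73 and did not pass (limma adjusted p = 0.54). The M2a difference of 1422978_at from M0 passed at -1.35 with the actin covariate, at -3.49 with the hybridization covariate and at -1.24 with M0 arrays 1 to 3 only (limma adjusted p = 0.0002, 0.008 and 0.00051). It also passed at -1.85 without M0 arrays 1 and 4 (limma adjusted p = 0.0042), and not without M0 array 1 alone (limma adjusted p = 0.17). Of the 10 probe sets of the 5 genes, array 5 had the highest M0 value for 5 and array 4 the lowest for 6.

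M0 differed from the other groups in genes of the sex chromosomes, and Cybb is on the X chromosome. Xist, the RNA of the inactive X, lay at 5.37 to 5.98 in M1, at 5.58 and 5.81 in 2 of the M2a arrays, and at 11.74 to 12.01 in M0, to which the remaining M2a array was closer. The Y-linked gene Eif2s3y lay at 8.48 to 8.87 in M1, 8.48 to 8.96 in M2a and 2.36 to 3.02 in M0. The M2a array with high Xist thus also had high Eif2s3y, and its part in M1 against M2a was not tested. Apart from Xist in that array, these genes and the cytokine state moved together in the comparisons against M0 and cannot be told apart. The Y-linked gene Kdm5d lay at 5.61 to 6.00 in M1, 6.27 to 6.90 in M2a and 2.34 to 2.85 in M0. The part of these differences in the Cybb results was not tested.

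Cyba, the membrane partner of gp91phox, was higher in both cytokine states. It measured 13.27, 13.20 and 13.24 in M1, 13.08, 13.16 and 13.20 in M2a, and 12.29, 12.51, 12.58, 12.26 and 12.66 in M0. Every M1 and M2a array lay above every M0 array. The difference from M0 was 0.77 ± 0.11 (SE) in M1, 1.71-fold, and 0.69 ± 0.11 (SE) in M2a, 1.61-fold, with limma adjusted p-values of 0.00014 and 0.00047. M1 and M2a themselves differed by 0.09 ± 0.12 (SE; limma adjusted p = 0.63), with a 95% interval of -0.17 to 0.35. Cyba has 1 probe set here, so no second one could be set beside it. The hybridization controls averaged 9.64 to 9.75 in M1, 9.79 to 9.96 in M2a and 10.61 to 11.70 in M0, so that M0 overlapped with neither state. With them as a covariate the Cyba differences were 0.29 in M1 and 0.25 in M2a, and neither passed (limma adjusted p = 0.086 and 0.098).

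**Figure D2:**
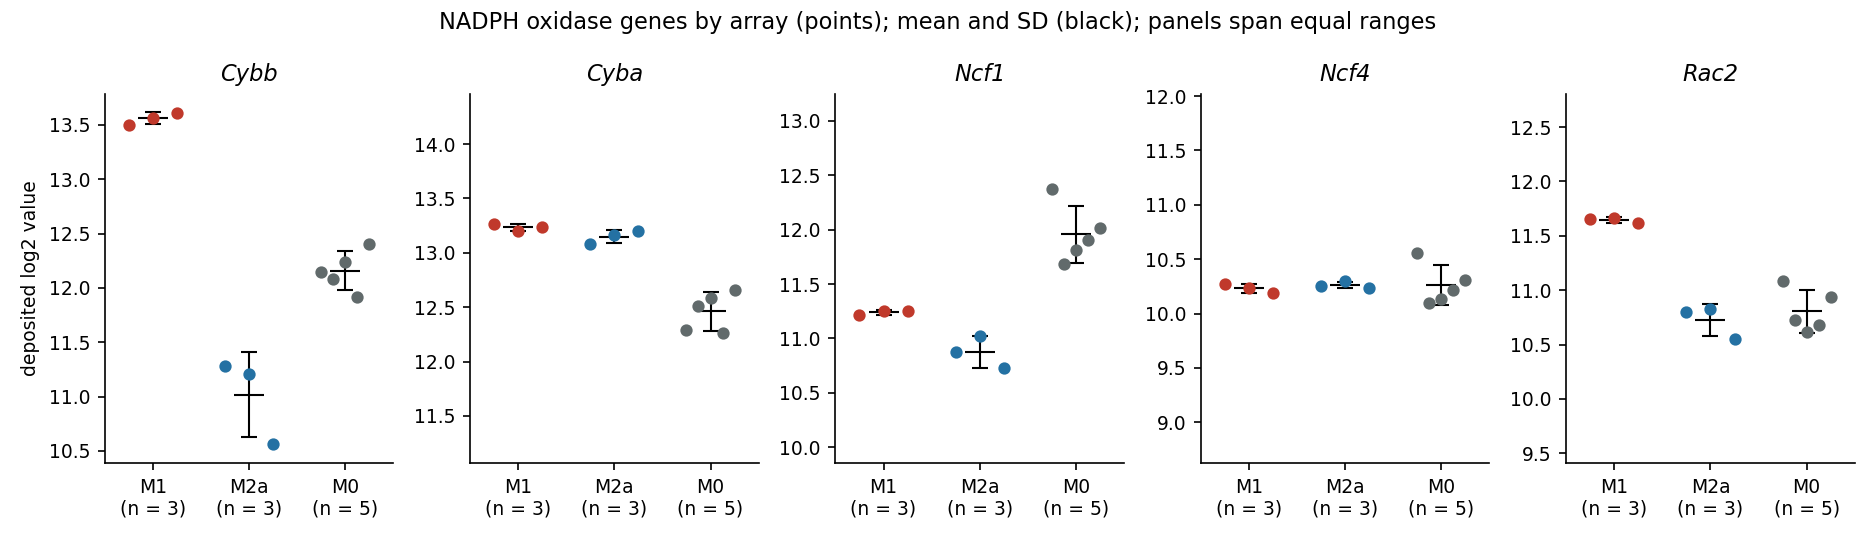
Deposited log2 values of Cybb, Cyba, Ncf1, Ncf4 and Rac2 in each array, by group (M1, M2a, M0). Points are arrays, black marks are the mean and SD, and all panels span equal ranges, since levels of different probe sets cannot be compared. Cybb is split into 3 separate levels, Cyba is high in M1 and M2a, and Ncf4 overlaps in all groups.

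Ncf1, which encodes the organizer p47phox, was lower in both cytokine states on its main probe set. The values were 11.21, 11.25 and 11.25 in M1, 10.88, 11.02 and 10.73 in M2a, and 12.38, 11.68, 11.81, 11.90 and 12.01 in M0. Neither M1 nor M2a overlapped with M0. The difference from M0 was -0.72 ± 0.14 (SE) in M1, 1.65-fold lower, and -1.08 ± 0.14 (SE) in M2a, 2.12-fold lower, with limma adjusted p-values of 0.0019 and 0.00015. M1 exceeded M2a by 0.36 ± 0.16 (SE), which did not pass (limma adjusted p = 0.11), although the arrays of these 2 groups did not overlap either. That difference passed without M0 array 1 (limma adjusted p = 0.029), where the M0 arrays enter only through the shared spread.

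In the fit of all 11 arrays without a covariate, the M1 fall of Ncf1 was not seen on the gene's other probe sets. The M2a fall was seen there on 1 of them. Probe set 1451767_at measured 10.41, 10.34 and 10.38 in M1, 9.47, 9.53 and 9.22 in M2a, and 11.17, 10.22, 10.28, 10.02 and 11.09 in M0. M1 lay inside the range of M0 (-0.18 ± 0.25 SE, limma adjusted p = 0.60), and M2a lay below it (-1.15 ± 0.25 SE, limma adjusted p = 0.0045). Probe set 1425609_at measured 9.44, 9.43 and 9.35 in M1, 8.34, 8.39 and 8.24 in M2a, and 9.75, 8.82, 8.99, 8.18 and 10.20 in M0. Both states overlapped with M0 there, with differences of 0.22 ± 0.35 (SE) in M1 and -0.86 ± 0.35 (SE) in M2a (limma adjusted p = 0.66 and 0.086). M1 was above M2a on both, by 0.97 ± 0.28 (SE) on 1451767_at, which passed (limma adjusted p = 0.021), and by 1.08 ± 0.40 (SE) on 1425609_at, which did not (limma adjusted p = 0.062). With the actin difference as a covariate, M1 against M0 was -0.91 on 1425609_at, which passed (limma adjusted p = 0.022), and -0.76 on 1451767_at, which did not (limma adjusted p = 0.056). M1 against M2a was then 0.42 on 1451767_at and 0.0083 on 1425609_at, and neither passed (limma adjusted p = 0.29 and 0.98). On 1425609_at M1 against M2a passed at 1.08 with M0 arrays 1 to 3 only (limma adjusted p = 0.0017) and at 1.00 with the hybridization covariate (limma adjusted p = 0.049). The M2a difference of 1425609_at from M0 passed at -0.92 with the actin covariate (limma adjusted p = 0.0019). It also passed at -0.86 with M0 arrays 1 to 3 only (limma adjusted p = 0.0074). With the hybridization covariate it was -1.58 and without M0 array 1 it was -0.72, and neither passed (limma adjusted p = 0.068 and 0.16). The M2a fall of 1451767_at was lost with the hybridization covariate (-1.22, limma adjusted p = 0.061). Under that covariate, the main probe set differed by -0.31 in M1, which did not pass (limma adjusted p = 0.33), and by -0.71 in M2a, which did (limma adjusted p = 0.028). Ncf1 was highest in M0 array 1, at 12.38. That array also had the highest M0 value of 11 of the 12 neutrophil-lineage genes, all 8 eosinophil, basophil and mast cell genes and all 4 monocyte genes. Its hybridization and poly-A controls, at 11.70 and 10.32, were also the highest of the 11 arrays. M0 array 4, with a neutrophil-lineage mean of 11.94, had the lowest M0 values on 1451767_at and 1425609_at. The part of any of these in the Ncf1 values was not tested. Without M0 array 1 the main probe set still fell, by 0.61 in M1 and by 0.98 in M2a.

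**Figure D3:**
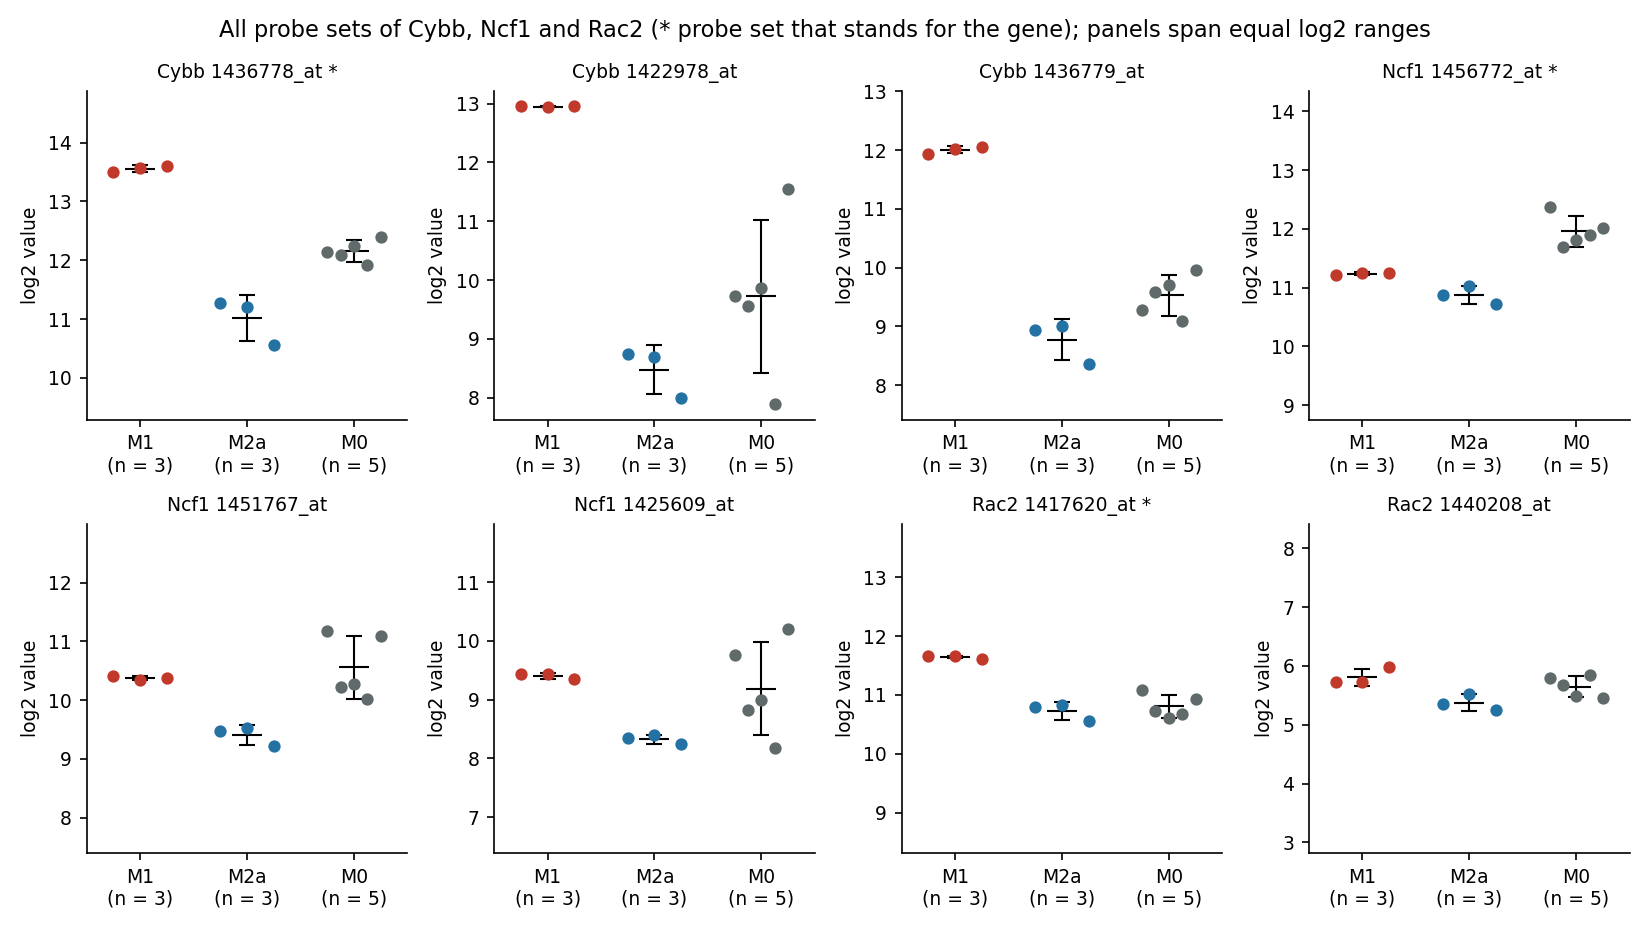
Deposited log2 values of all 8 probe sets of Cybb, Ncf1 and Rac2 in each array, by group (M1, M2a, M0). Points are arrays, black marks are the mean and SD, and an asterisk marks the probe set that stands for the gene. The 3 Cybb probe sets share the order of M1 over M0 over M2a, while M1 lies below M0 on 1 Ncf1 probe set and within M0 on the other 2.

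Ncf4, which encodes p40phox, showed no detectable difference between any states. It measured 10.27, 10.23 and 10.19 in M1, 10.26, 10.30 and 10.24 in M2a, and 10.55, 10.09, 10.13, 10.21 and 10.31 in M0. The M1 and M2a arrays all lay inside the range of M0, whose highest value was again that of array 1. The difference from M0 was -0.03 ± 0.11 (SE) in M1 and 0.00 ± 0.11 (SE) in M2a, with limma adjusted p-values of 0.87 and 0.98. The 95% intervals ran from 0.835-fold to 1.16-fold for M1 and from 0.852-fold to 1.18-fold for M2a. M1 and M2a differed by -0.03 ± 0.12 (SE; limma adjusted p = 0.88). The values therefore leave room for changes of that size, and Ncf4 has 1 probe set here.

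Rac2, the GTPase of blood cells that completes the active oxidase, was higher in M1. It measured 11.66, 11.66 and 11.62 in M1, 10.80, 10.83 and 10.55 in M2a, and 11.08, 10.73, 10.61, 10.68 and 10.94 in M0. All M1 arrays lay above all others, and M2a overlapped with M0. Rac2 in M1 exceeded that in M0 by 0.84 ± 0.12 (SE), 1.79-fold, and that in M2a by 0.92 ± 0.13 (SE), 1.89-fold, with limma adjusted p-values of 0.00019 and 0.00027. M2a differed from M0 by -0.08 ± 0.12 (SE; limma adjusted p = 0.65), with a 95% interval of -0.34 to 0.18. The other probe set, 1440208_at, had low values of 5.73, 5.73 and 5.97 in M1, 5.35, 5.53 and 5.26 in M2a, and 5.79, 5.67, 5.48, 5.85 and 5.45 in M0. There M1 and M0 overlapped (0.16 ± 0.12 SE, limma adjusted p = 0.31). That difference passed at 0.40 with the actin covariate and at 0.59 with the hybridization covariate (limma adjusted p = 0.046 and 0.035). M2a against M0 was -0.27 ± 0.12 (SE) and did not pass (limma adjusted p = 0.11), but passed at -0.26 with the actin covariate (limma adjusted p = 0.047). On this probe set M1 exceeded M2a by 0.43 ± 0.13 (SE; limma adjusted p = 0.032). Rac2 and Ncf4 are both on chromosome 15 in RefSeq's GRCm38.p6 annotation, with 10 protein-coding genes between them.

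Of the 5 genes, 3 rose and 1 fell in M1 against M0, where 39.7% of all 18193 genes passed, 22.1% higher and 17.6% lower. In M2a against M0, 1 rose and 2 fell, where 31.9% of all genes passed, 18.6% higher and 13.3% lower. In M1 against M2a, 2 were higher and none lower, where 29.4% passed, 13.7% higher in M1 and 15.6% lower. Of the 10 probe sets of these genes, 6 passed in M1 against M0, 5 in M2a against M0 and 6 in M1 against M2a, beside 39.6%, 31.9% and 29.1% of all 34945 probe sets. The arrays of the 2 groups did not overlap for 4, 3 and 4 of the 5 genes in these comparisons, against 40.1%, 35.1% and 64.6% of all genes. The median difference of the 5 was 0.77, -0.08 and 0.36, beside 0.06, 0.07 and -0.02 over all genes. The subunits were thus not shifted as a block in either state. In M1 Cybb, Cyba and Rac2 were higher, Ncf1 was lower on its main probe set and Ncf4 did not pass. In M2a Cyba was higher, Cybb and Ncf1 were lower and Ncf4 and Rac2 did not pass. Across the 11 arrays, which fall into 3 groups, Cybb and Rac2 had a Pearson correlation of 0.87, Cyba and Ncf1 one of -0.88, and Cybb and Cyba one of 0.16, given as a description.

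**Figure D4:**
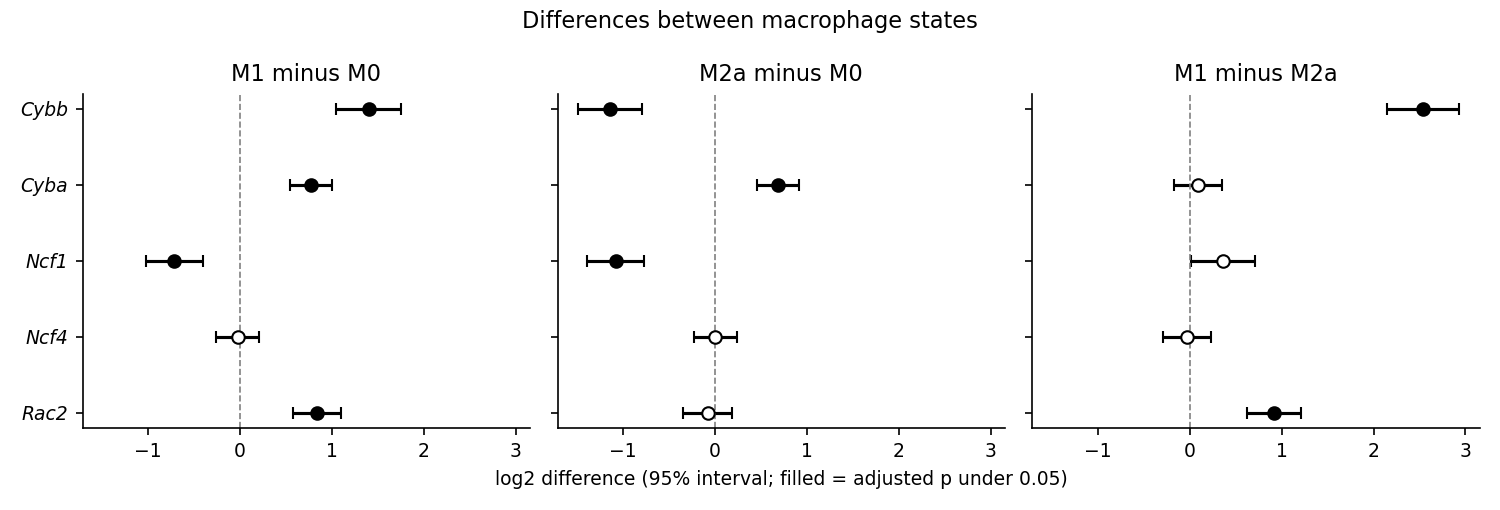
Log2 differences of the 5 genes with 95% intervals in M1 minus M0, M2a minus M0 and M1 minus M2a. Filled points passed an adjusted p of 0.05 in limma. Cybb lies on opposite sides of 0 in the first 2 panels, and Ncf4 lies near 0 in all 3.

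Of the other oxidase subunits and relatives, 3 of 8 listed genes were measured, Nox4, Noxo1 and Duox1. Nox4, a constitutively active oxidase, measured 3.44, 3.30 and 3.49 in M1, 3.33, 3.02 and 3.07 in M2a, and 3.53, 3.33, 3.43, 3.44 and 3.42 in M0. Its M2a difference of -0.29 ± 0.10 (SE) passed (limma adjusted p = 0.039) at values below the median of every array, where a probe set may lack signal. Noxo1, the organizer of the epithelial oxidase, lay at 5.33 to 5.74 and Duox1 at 4.07 to 4.84 over all arrays, and neither passed in any comparison.

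Of 4 genes of gp91phox maturation and charge compensation, 2 rose and 1 fell in M1, and 1 rose and 3 fell in M2a, each against M0. Cybc1, also called Eros, an endoplasmic reticulum protein that gp91phox needs to be made, measured 9.16, 9.16 and 9.21 in M1, 7.87, 7.97 and 7.84 in M2a, and 8.23, 8.38, 8.34, 8.22 and 8.41 in M0. The 3 groups did not overlap, and M1 lay above and M2a below M0. It rose by 0.86 ± 0.08 (SE) in M1 and fell by 0.42 in M2a, and M1 exceeded M2a by 1.28 ± 0.09 (SE), with limma adjusted p-values of 8.3e-06, 0.0023 and 7.7e-07. Nrros, which limits the oxidase by lowering gp91phox protein, fell by 0.44 in M1 and by 0.82 in M2a against M0. Canx, the chaperone calnexin, differed by 0.24 ± 0.14 (SE) in M1, which did not pass (limma adjusted p = 0.18), and fell by 0.60 in M2a, each against M0. Hvcn1, the proton channel that balances the charge moved by the oxidase, rose by 0.32 in M1, close to the threshold (limma adjusted p = 0.049), and by 0.59 in M2a.

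Rac is switched on by exchange factors and held inactive by inhibitors. Of 12 measured genes of Rac and Rap GTPases and their regulators, 4 rose and 2 fell in M1, with a median difference of 0.17. In M2a 1 rose and 5 fell, with a median of -0.24. Vav1, the exchange factor of blood cells, measured 9.22, 9.11 and 9.16 in M1, 7.39, 7.11 and 6.98 in M2a, and 8.05, 8.19, 8.38, 8.05 and 8.35 in M0. It rose by 0.96 ± 0.12 (SE) in M1 and fell by 1.04 in M2a. Dock2, another Rac exchange factor of leukocytes, showed the opposite order. It measured 8.60, 8.47 and 8.55 in M1, 10.12, 10.25 and 10.30 in M2a, and 9.36 to 9.41 in M0. It fell by 0.85 in M1 and rose by 0.84 ± 0.08 (SE) in M2a, and M1 differed from M2a by -1.68 ± 0.09 (SE; limma adjusted p = 5.2e-08). Vav2 rose by 1.12 in M1. Arhgdib, an inhibitor that keeps Rac in the cytosol, rose by 0.86 in M1 and exceeded M2a by 1.46. Tiam1, a further exchange factor, fell by 1.44 in M1 and by 1.01 in M2a. Rac1, the widely expressed relative of Rac2, differed by 0.31 ± 0.18 (SE) in M1 and 0.15 ± 0.18 (SE) in M2a and did not pass (limma adjusted p = 0.19 and 0.56).

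Kinases and lipid enzymes act on p47phox, p40phox and their membrane. Of 11 measured genes of this kind, 1 rose and 5 fell in M1, with a median difference of -0.06, and 1 rose and 3 fell in M2a, with a median of -0.11. Pla2g4a, the phospholipase that frees arachidonic acid, measured 11.16, 11.34 and 11.45 in M1, 8.79, 8.67 and 8.44 in M2a, and 7.89, 8.66, 8.36, 7.36 and 9.25 in M0. Its rise of 3.01 ± 0.33 (SE) in M1 was the largest of the list (limma adjusted p = 2.4e-05). Prkca, a protein kinase C that phosphorylates p47phox, fell by 2.35 in M1 and by 1.75 in M2a. Pik3cg, a phosphoinositide 3-kinase of leukocytes, fell by 1.42 in M1 and by 0.66 in M2a. Mapk14, the kinase p38 alpha, fell by 0.63 in M1 and by 0.82 in M2a. Prkcz, an atypical protein kinase C, rose by 0.67 in M2a.

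Of 7 measured transcription factors known to act on promoters of oxidase genes, 5 rose and 1 fell in M1, with a median difference of 0.43. In M2a 1 rose and 2 fell, with a median of 0.03. Irf1, an interferon regulatory factor, measured 12.16, 12.02 and 12.03 in M1, 8.83, 8.80 and 8.54 in M2a, and 9.10 to 9.16 in M0. It rose by 2.93 ± 0.09 (SE) in M1 and fell by 0.41 in M2a (limma adjusted p = 6.7e-10 and 0.0043). Irf8, a factor of the macrophage lineage, rose by 0.72 in M1 and fell by 0.44 in M2a. Spi1, which encodes PU.1, rose by 0.69 in M1 and by 0.42 in M2a. Cebpa, a factor of myeloid differentiation, fell by 0.94 in M1.

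Of 10 measured receptors that trigger the oxidase, 6 rose and 3 fell in M1, with a median difference of 0.88, and 1 rose and 5 fell in M2a, with a median of -0.36. Fcgr1, the high-affinity receptor for IgG, measured 11.26, 11.24 and 11.15 in M1, 6.86, 6.80 and 6.55 in M2a, and 8.24, 9.30, 8.91, 8.06 and 9.57 in M0. It rose by 2.40 ± 0.30 (SE) in M1 and fell by 2.08 in M2a (limma adjusted p = 6.4e-05 and 0.00027). Fpr2, a receptor for formylated peptides, rose by 2.18 in M1 and fell by 5.66 in M2a. Itgb2, the shared chain of the leukocyte integrins, rose by 0.83 in M1 and by 0.95 in M2a. Itgam, its partner in complement receptor 3, fell by 1.49 in M1 and differed by -0.05 ± 0.30 (SE) in M2a. Fcgr3, a low-affinity IgG receptor, fell by 0.98 in M1 and by 0.91 in M2a.

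Of the 47 measured genes of these lists, 18 rose and 12 fell in M1 (63.8%, beside 39.7% of all genes). In M2a 5 rose and 19 fell (51.1%, beside 31.9%), and in M1 against M2a 19 were higher and 8 lower (57.4%, beside 29.4%). The median difference of the 47 was 0.21 in M1 and -0.16 in M2a, each against M0, and 0.19 in M1 against M2a. These lists were chosen with earlier results of these data known. In a fit of only the 9096 genes above the median gene, 4625 passed in M1 against M0. There 3977 passed in M2a against M0 and 3798 in M1 against M2a.

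**Figure D5:**
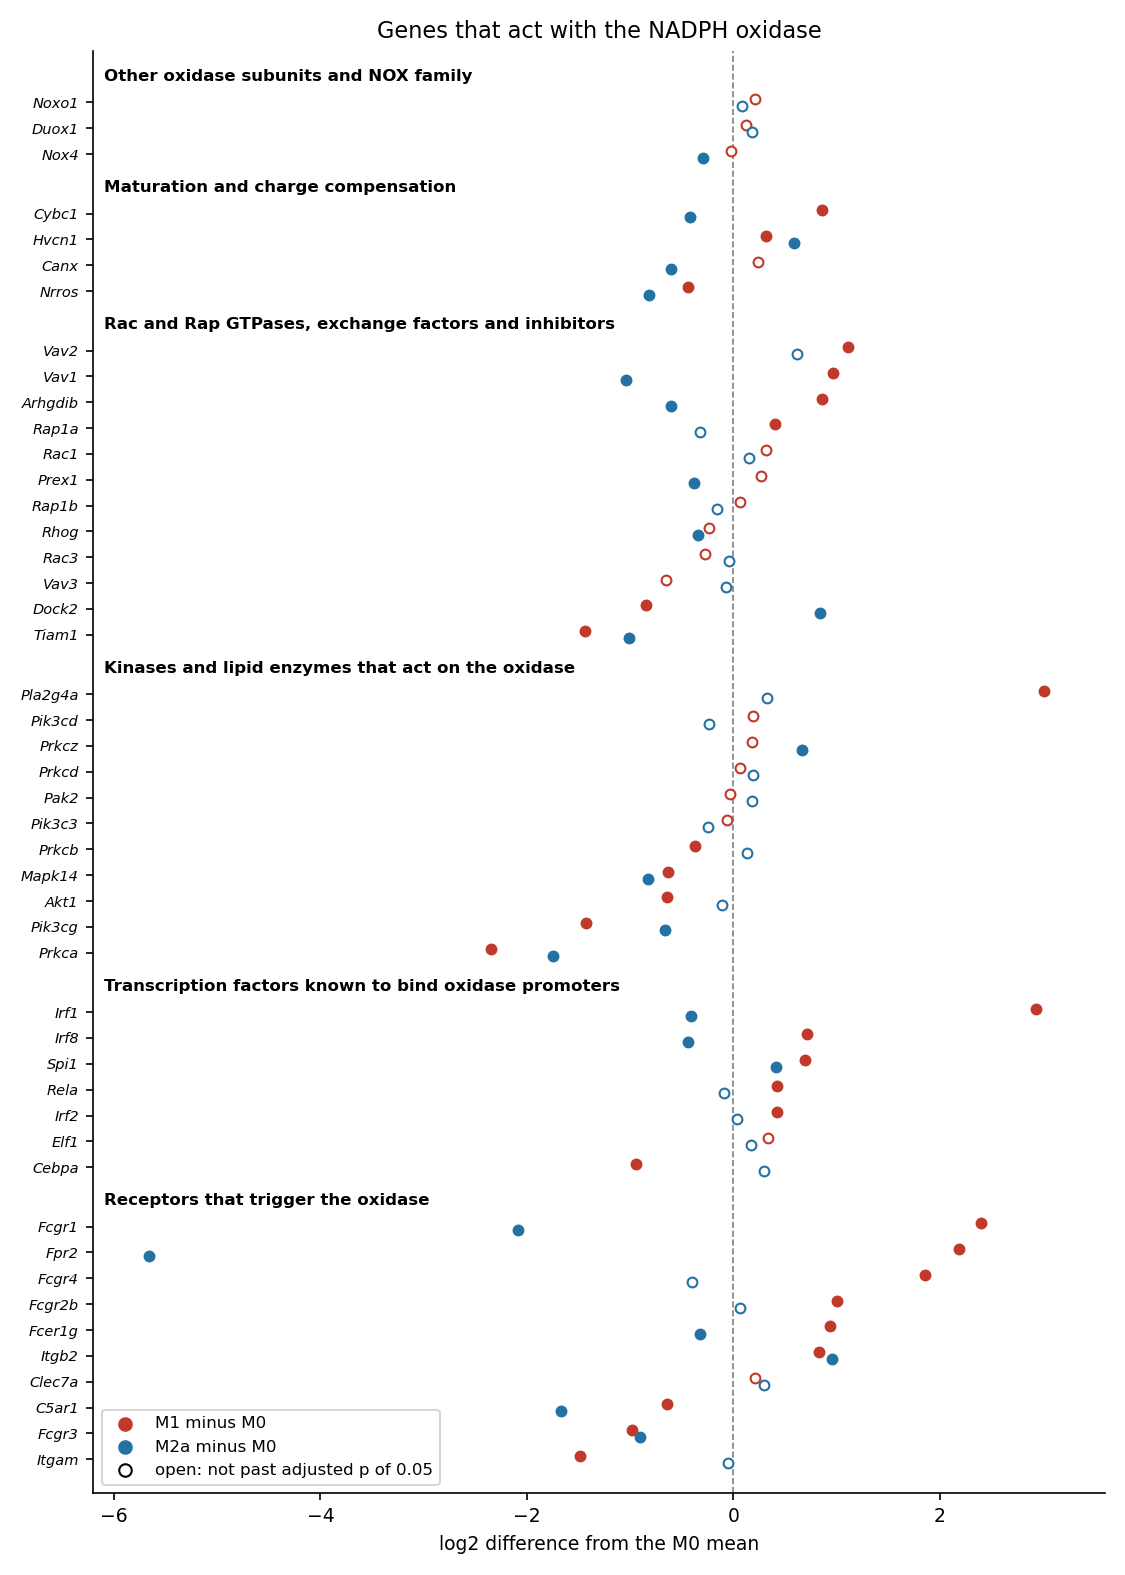
Log2 differences of the 47 measured genes that act with the oxidase, by list, in M1 minus M0 (red) and M2a minus M0 (blue). Filled points passed an adjusted p of 0.05 in limma. Vav1, Cybc1, Fcgr1 and Fpr2 lie on opposite sides of 0 in the 2 states.

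The genes whose values followed each subunit most closely over the 11 arrays are given as a description, since the arrays fall into 3 groups and share them with the subunits. For Cybb these were Pml (Pearson r = 0.993), Nod1 (0.991) and Lpcat2 (0.991). Nod1, a sensor of bacterial peptidoglycan, averaged 10.25 in M1, 6.17 in M2a and 7.87 in M0. For Cyba they were Eno2 (0.995), Stx18 (0.995) and Yipf1 (0.993). Eno2, an enolase of glycolysis, averaged 6.59 in M1, 6.32 in M2a and 4.16 in M0. For Ncf1 they were BC040756 (0.986), Sgo1 (0.984) and Notch1 (0.984). Notch1, a receptor of cell fate decisions, averaged 8.67 in M1, 8.13 in M2a and 9.69 in M0. For Rac2 they were Cst7 (0.980), Tspo (0.979) and Gpr132 (0.977). Cst7, the protease inhibitor cystatin F, averaged 11.89 in M1, 6.46 in M2a and 7.15 in M0. For Ncf4, which hardly varied, the closest were Muc15 (0.933), Hopx (0.928) and Galntl5 (0.919).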

How the data were processed

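Total RNA of 11 samples was hybridized to Affymetrix mouse arrays, per the labels' protocols. The values the authors deposited are log2 values of 45101 probe sets. The submitters' processing notes name Partek and give no version. No source used here gives the background correction, probe summary or normalization. Values ran from 0.73 to 14.49. The number of arrays limits the precision.

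Probe sets were named through GEO's platform annotation, with symbols brought up to date through Entrez identifiers and RefSeq. Apart from 13 of the 64 control probe sets, 34945 had 1 symbol, and 932 with several were left out. Each of 18193 genes took its brightest probe set on average. No filter was used. In R 4.3.3, limma 3.58.1 (lmFit, eBayes, 1 mean per group, 8 residual degrees of freedom, which treat the M0 arrays as unrelated) gave differences, SE and p-values with Benjamini-Hochberg adjustment over all genes. A gene passed at an adjusted p under 0.05, and only then is it said to have risen or fallen. Other probe sets were tested in a fit over all 34945. The fit was tested on simulated data. Genes named are the 5 members, every measured gene of the first 2 lists, up to 2 largest rises and 2 largest falls of each other list in a comparison, and the 3 genes most correlated with each member, passing over symbols that end in Rik or start with LOC or with Gm and a digit. Rac1, Itgam in M2a, the markers named and the sex-chromosome genes were added after their values were seen. Of 58 listed pathway genes, 47 were measured. The members and lists were chosen with earlier results of these data known. Alternatives were other scalings, probe sets, filters, weights, covariates, array subsets and the replicate number as a block.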

Additional observations from a re-analysis of the deposited data

How the results depend on the processing

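Of the 15 differences of the 5 genes, every one of Rac2 and Ncf4 stayed on its side of the threshold in all 26 alternatives. So did those of Cybb in M1 against M0 and in M1 against M2a. Cyba in M1 against M2a did so in the 25 alternatives that gave it a value. Not all 26 could move a difference. M0 arrays 1 to 3 and M0 arrays 4 and 5 share their averages, so either subset kept the differences from M0. Leaving out only M0 arrays kept the difference of M1 against M2a, where they enter through the shared spread. With the probe set of largest variance, Ncf1 in M1 against M0 was 0.22 in place of -0.72, Cybb in M2a was -1.24 and Ncf1 in M2a -0.86, none of which passed, and 1 of the 5 genes passed in M2a. Averaging all probe sets of a gene, Ncf1 was -0.23 in M1 against M0, which did not pass, and 0.80 in M1 against M2a, which did. With the hybridization controls as a covariate Cyba was 0.29 in M1 and 0.25 in M2a and Ncf1 -0.31 in M1 against M0, none of which passed, so that 2 of the 5 genes passed in M1. All genes passing were then 9008 in M2a against M0 and 8442 in M1 against M2a. The cause was not tested. With the actin difference as a covariate, probe set 1425609_at of Ncf1 turned to -0.91 in M1 against M0. Ncf1 in M1 against M2a passed at 0.36 with only the 2 groups compared, with M0 arrays 4 and 5 only, and without M0 arrays 1 and 4 together (an alternative chosen after seeing the data), at 0.34 with array weights and at 0.40 with the hybridization covariate. Leaving out 1 array at a time gave 0.29 to 0.44. The count of all genes passing in M1 against M0 was 7217, and 4625 among genes above the median gene, where fewer genes were tested, and 4758 with M0 arrays 4 and 5 only. With these it was 3801 in M2a against M0, beside 5804. In M1 against M2a it was 5341, and 10357 with only the 2 groups compared, 11342 with array weights and 8653 without M0 arrays 1 and 4. With the replicate number as a block, Cybb was 1.40, -1.14 and 2.54 in the 3 comparisons, and no call of the 5 genes changed. Same-numbered arrays correlated at -0.04 to 0.25 in their deviations from group means. In groups of 3 to 5 arrays this cannot decide whether the numbers mark pairs. Cyba has no probe set with a plain _at ending, so that alternative gave it no value. Because of the equal averages within M0, a check for a single outlying array says little there, and none is reported.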
